A study of Brassica oleracea with 8 samples.

Results

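Expression of 5 auxin genes was compared among 3 morphotypes of Brassica oleracea, the species of the Cole crops. The genes are the 3 copies that the study names AXR1 (Bo8g102450, Bo8g052710 and Bo8g115290), PID (Bo4g182790) and ABP1 (Bo9g006170), and they were taken by identifier from 60586 annotated features. All 5 were among the 28126 features with enough counts to be tested. The study picked out these genes by their expression in these same libraries together with their known functions, so the tests below describe the genes and are not independent evidence for choosing them.

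There were 8 libraries: 3 were made from a kale with lobed leaves, 2 from a cabbage and 3 from TO1000, which is a doubled haploid, rapid cycling line of kale-like type. Each morphotype was 1 accession grown in the same chamber, without a treatment, and each library pooled 8 plants. The sampled tissue was the upper stem with its immature leaves and meristems, taken at 24 days. The labels call the accessions var. viridis, var. sabadua and var. alboglabra, while the paper calls the kale Red Winter and the cabbage var. capitata. With 1 accession per morphotype, a difference between morphotypes cannot be told apart from a difference between accessions.

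Auxin reaches its target genes by having repressor proteins of the Aux/IAA family destroyed. In Arabidopsis, AXR1 is part of the enzyme that activates the small protein RUB (NEDD8 in animals), which is attached to the ubiquitin ligases that mark Aux/IAA proteins, and axr1 mutants respond weakly to auxin and branch freely. PID (PINOID) is a protein kinase that phosphorylates the PIN carriers and so influences the side of the cell from which auxin leaves, with a part in organ formation at the shoot apex. ABP1 (AUXIN BINDING PROTEIN) binds auxin outside the nucleus, and its importance as a receptor has been debated. B. oleracea descends from a plant with a triplicated genome, so that a gene known once in Arabidopsis is often present in several copies.

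Library totals ranged from 3016197 to 7539991 counts on genes, and the shallowest library was a cabbage library. The tissue label was checked against genes that the study names with a known role. The 4 genes of young leaves and organ primordia (ANT, GRF3, GRF4, BLI) had counts in all 8 libraries, and their summed level was 19.4 to 24.2 CPM (counts scaled to a common library total) in kale, 38.0 to 40.5 CPM in cabbage and 43.5 to 55.6 CPM in TO1000. The members of this sum did not move together: BLI was called higher in kale than in TO1000 and cabbage (log2 fold changes 1.27 and 1.41), ANT was called lower than in both (-1.55 and -1.02), GRF4 lower only than in TO1000 (-1.52) and GRF3 lower only than in cabbage (-1.25). The leaf ferredoxin gene FD1 ranged from 8.13 to 9.21 CPM in kale, from 33.9 to 37.6 CPM in cabbage and from 15.9 to 21.6 CPM in TO1000. AP1, a gene of floral meristems, had 5.26 to 6.74 CPM in kale, at most 0.168 CPM in cabbage and at most 0.148 CPM in TO1000. Trichomes were represented by 4 of the trichome genes that the study lists (GL1, GL2, EGL3, TRY). They summed to 54.2 to 85.4 CPM in kale, 37.3 to 48.6 CPM in cabbage and 45.9 to 47.9 CPM in TO1000. Of these, GL1, GL2 and TRY were called higher in kale than in both others, TRY made up most of the kale sum (mean 50.4 CPM), and EGL3 was called lower in kale than in TO1000 (log2 fold change -2.11) and in cabbage (-1.88). Among the listed trichome genes outside this sum, both MYB106 copies, WRKY44 Bo3g031650 and CML42 Bo3g162280 were called higher in kale than in both others. HDG11 was called lower in kale than in TO1000 and cabbage (log2 fold changes -1.74 and -1.84). The others had too few counts to be tested. In kale, cabbage and TO1000, WRKY44 Bo4g030720 had 31, 0 and 1 counts, MYB80 had 0, 7 and 18, and XIK had 1, 7 and 32. These differences run alongside those of the auxin genes, and their part in the results below was not tested. In such bulk tissue, fewer cells that express a gene and less RNA per cell cannot be told apart.

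The 3 AXR1 copies were divided among the morphotypes. Kale was counted mainly on Bo8g102450 and Bo8g052710, TO1000 almost wholly on Bo8g115290, and cabbage had 2 counts on the 3 copies together. Levels are given in CPM after TMM scaling. To be called different between 2 morphotypes, a gene needed an FDR below 0.05 and a change of more than 2-fold. For a morphotype in which a gene has no counts, 3 counts over its libraries served as a working limit. This is 0.176 CPM for kale, 0.344 CPM for cabbage and 0.147 CPM for TO1000.

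Bo8g102450 had 67, 30 and 22 counts in kale replicates 1 to 3, against 0 and 1 in the cabbage libraries and 0 in each TO1000 library. In CPM this was 9.21, 5.38 and 5.26 in kale, with a mean of 6.62 ± 2.25 (SD, n = 3). Every kale library lay far above every other library. Kale was called higher than TO1000 (edgeR quasi-likelihood test, Benjamini-Hochberg adjusted p = 3.23e-06). With TO1000 set at 3 counts the pooled kale level was 47.6-fold higher, a value that leaves out the counting error of kale. Against the single cabbage count the ratio was 61.0, with a 95% counting interval of 10.7 to 2429 (edgeR, Benjamini-Hochberg adjusted p = 1.09e-04). Cabbage and TO1000 were both at or under the limit, so no fold can be given between them. The gene passed the count filter through kale libraries only, so it had to differ and these p values support nothing further.

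Bo8g052710 followed the same division. Its counts were 38, 21 and 7 in kale, against 0 and 0 in cabbage and 0, 3 and 2 in TO1000. The kale levels of 5.22, 3.77 and 1.67 CPM varied more than those of Bo8g102450 but stayed above the 0, 0.410 and 0.295 CPM of TO1000. The log2 fold change of kale over TO1000 was 3.80 with a standard error of 0.71 and a 95% interval of 2.28 to 5.32 (edgeR, Benjamini-Hochberg adjusted p = 6.87e-04). Kale was called higher than cabbage (edgeR, Benjamini-Hochberg adjusted p = 0.00113). With cabbage set at 3 counts the pooled kale level was 11.3-fold higher, again without the counting error of kale. With 5 counts in TO1000 and none in cabbage, a difference between these was not detectable at this depth. Without kale replicate 1, and likewise without kale replicate 2, the gene no longer passed the count filter. It passed the filter, as did Bo8g102450, through kale libraries only, so it too had to differ and its p values support nothing further.

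Bo8g115290 had most of its counts in TO1000. It had 14, 10 and 2 counts in kale, 0 and 1 in cabbage, and 81, 54 and 55 in TO1000. The levels were 1.92, 1.79 and 0.478 CPM in kale, 0 and 0.168 CPM in cabbage and 12.8, 7.38 and 8.12 CPM in TO1000, so that no 2 morphotypes overlapped. The log2 fold change of kale over TO1000 was -2.64 with a standard error of 0.40 and a 95% interval of -3.49 to -1.79 (edgeR, Benjamini-Hochberg adjusted p = 8.60e-05). The ratio of cabbage to TO1000 was 0.0123, with a 95% counting interval of 0.000311 to 0.0695 (edgeR, Benjamini-Hochberg adjusted p = 1.56e-05). Both of these calls were kept under all 18 alternatives. The gene passed the count filter through the TO1000 libraries, however. A difference from TO1000 was thus favoured beforehand, and the calls and their persistence support nothing further.

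The third comparison of Bo8g115290 was less firm. Kale was higher than cabbage by a ratio of 13.3, with a 95% counting interval of 2.19 to 546 (edgeR, Benjamini-Hochberg adjusted p = 0.0124). This call was lost without cabbage replicate 1 (adjusted p = 0.0529) and without cabbage replicate 2 (adjusted p = 0.0719), where the lone cabbage library was assumed to vary like the others. It was also lost when the difference was tested against a 2-fold change (glmTreat, adjusted p = 0.0557).

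**Figure D1:**
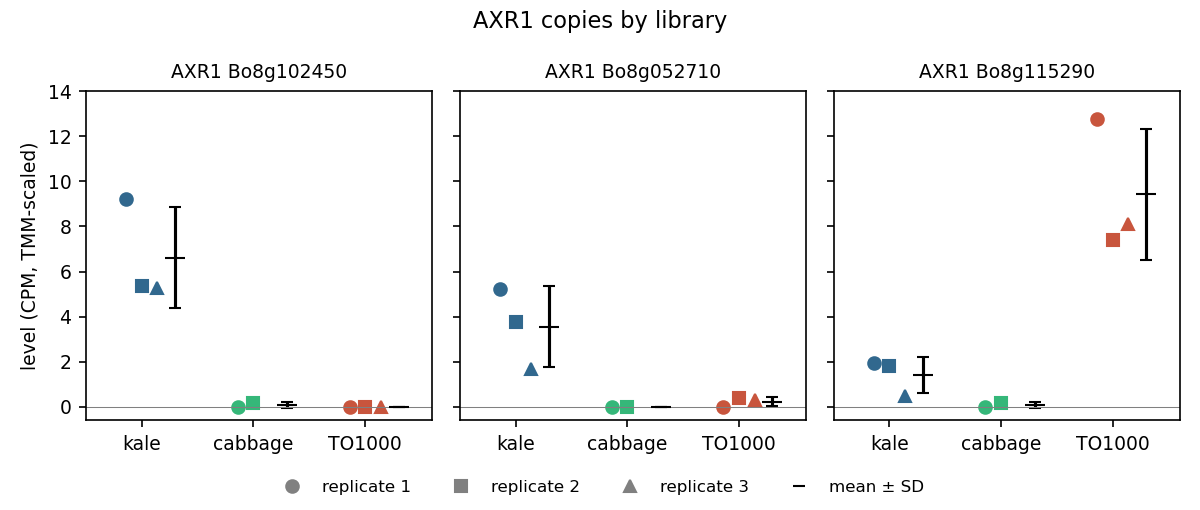
Level of each AXR1 copy in CPM (vertical axis) in kale, cabbage and TO1000 (horizontal axis), with 1 symbol per library and the mean ± SD in black. Kale stands above the others for Bo8g102450 and Bo8g052710, TO1000 stands above kale for Bo8g115290, and the cabbage libraries lie between 0 and 0.168 CPM in all panels.

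The use of the copies was then expressed as the share of the AXR1 counts of a library. Gene lengths are not in the files, so these are shares of counts and not of transcripts. The copies are therefore not ranked against each other within a morphotype, and the share of a copy is compared only with that of the same copy in another morphotype. In kale replicates 1 to 3, Bo8g102450 held 56.3%, 49.2% and 71.0% of 119, 61 and 31 AXR1 counts. Bo8g052710 held 31.9%, 34.4% and 22.6%, and Bo8g115290 held 11.8%, 16.4% and 6.45%. All 3 copies had counts in every kale library.

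In TO1000 the counts lay almost wholly on 1 copy. Bo8g115290 held 100.0%, 94.7% and 96.5% of 81, 57 and 57 counts. The counts that remained in TO1000 were the 3 and 2 of Bo8g052710. Pooled over libraries, the share of Bo8g115290 was 12.3% of 211 counts in kale (exact Clopper-Pearson 95% interval 8.21 to 17.5%) and 97.4% of 195 counts in TO1000 (94.1 to 99.2%). For Bo8g102450 the pooled share was 56.4% in kale (49.4 to 63.2%) and 0% in TO1000, where the interval reached 1.87%. For Bo8g052710 it was 31.3% in kale (25.1 to 38.0%) and 2.56% in TO1000 (0.838 to 5.88%). No interval of a copy in kale overlapped that of the same copy in TO1000. The copies were chosen with their differences known, and each passed the count filter through kale or through TO1000. This separation was thus favoured beforehand and supports nothing further. These intervals leave out the spread between libraries, which for Bo8g102450 in kale ran from 49.2% to 71.0%. They also treat each count as an independent molecule, which copies made by PCR are not, so they may be too narrow.

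**Figure D2:**
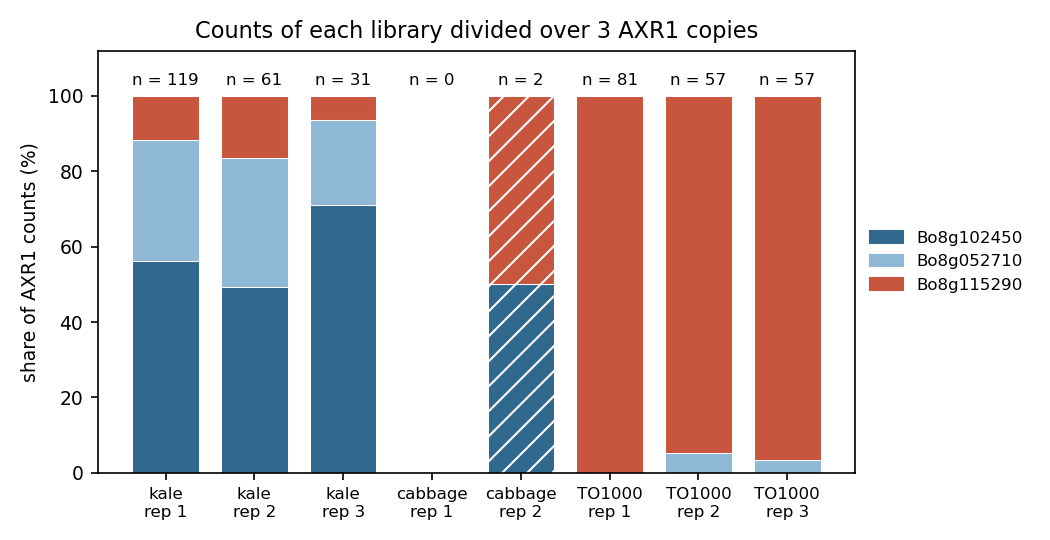
Share of the AXR1 counts (vertical axis, percent) on each copy in each library (horizontal axis), with the number of AXR1 counts above each bar and hatching where it was under 10. Bo8g102450 holds 49.2% or more of every kale bar, in TO1000 Bo8g115290 holds 94.7% or more, and cabbage replicate 1 has no count to divide.

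Summed over the copies, the levels of kale and TO1000 overlapped and cabbage was far below both. The sum was 16.4, 10.9 and 7.41 CPM in kale, 0 and 0.335 CPM in cabbage and 12.8, 7.79 and 8.41 CPM in TO1000. The kale and TO1000 libraries overlapped, with means of 11.6 ± 4.51 CPM in kale and 9.65 ± 2.70 CPM in TO1000 (SD, n = 3 each). From the pooled counts the ratio of kale to TO1000 was 1.30, with a 95% counting interval of 1.06 to 1.59 that leaves out the spread between libraries. Kale and TO1000 were counted mainly on different copies, whose lengths are not known. This ratio and the overlap therefore compare counts and not amounts of AXR1 transcript. The cabbage libraries overlapped neither. The 2 cabbage counts, out of 8742905 counts on genes in that morphotype, fall in cabbage replicate 2, 1 each on Bo8g102450 and Bo8g115290. The ratio of kale to cabbage was 54.1, with a 95% counting interval of 14.8 to 449, and the ratio of cabbage to TO1000 was 0.0240, with an interval of 0.00289 to 0.0880. No test was made on the sum, because the copies were chosen with their differences known. Which AXR1 copy cabbage uses is therefore not answered by these 3 features, and features that the study does not name AXR1 were not examined for it. Shares of genes with so few counts are given as background only. The cutoff of at most 1 count follows the members' own values, so nothing is read from these shares. Of 18497 tested genes with at least 100 counts over TO1000, 237 (1.28%) had at most 1 count over cabbage, as Bo8g115290 did. Of 17323 with at least 100 counts over kale, 52 (0.300%) had at most 1 count in cabbage and at most 1 in TO1000, as Bo8g102450 did.

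PID differed in all 3 comparisons, and kale lay between the other morphotypes. It had 59, 27 and 31 counts in kale, 33 and 123 in cabbage and 12, 8 and 9 in TO1000. The levels were 8.11, 4.84 and 7.41 CPM in kale, 11.9 and 20.6 CPM in cabbage and 1.89, 1.09 and 1.33 CPM in TO1000. The morphotypes did not overlap, although the 2 cabbage libraries differed widely. Cabbage was 11.6-fold higher than TO1000, with a 95% interval of 6.87 to 19.5 (edgeR, Benjamini-Hochberg adjusted p = 1.31e-06), and kale was 4.73-fold higher than TO1000, with an interval of 2.82 to 7.91 (edgeR, Benjamini-Hochberg adjusted p = 1.18e-04). Both calls were kept under all 18 alternatives.

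The step between kale and cabbage rested on cabbage replicate 2. The log2 fold change of kale over cabbage was -1.29, with a 95% interval of -1.94 to -0.64 (edgeR, Benjamini-Hochberg adjusted p = 0.00341). Without cabbage replicate 2 the value was -0.81 (adjusted p = 0.171), and with all libraries thinned to the depth of the smallest it was -0.76 (adjusted p = 0.0548), so that the call was lost in both. Of all tested genes, 3.59% were called in all 3 comparisons, and 0.683% were called in all 3 in the order of PID, with cabbage above kale and kale above TO1000.

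ABP1 was lower in kale than in both other morphotypes, by about 2-fold. Its counts were 41, 29 and 31 in kale, 40 and 78 in cabbage and 74, 92 and 80 in TO1000. The levels were 5.64, 5.20 and 7.41 CPM in kale, 14.5 and 13.1 CPM in cabbage and 11.6, 12.6 and 11.8 CPM in TO1000. No kale library reached the level of any other library. Kale had 0.440 times the level of cabbage, with a 95% interval of 0.306 to 0.632 (edgeR, Benjamini-Hochberg adjusted p = 0.00131). Against TO1000 it had 0.501 times the level, with an interval of 0.364 to 0.689 (edgeR, Benjamini-Hochberg adjusted p = 0.00185).

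The log2 fold change of -1.19 against cabbage passed the 2-fold threshold and that of -0.998 against TO1000 just missed it. The difference from TO1000 was therefore not called, yet it passed in 9 of 18 alternatives, and glmTreat called neither. Between cabbage and TO1000 the log2 fold change was 0.19, with a 95% interval of -0.30 to 0.68 (edgeR, Benjamini-Hochberg adjusted p = 0.547), which corresponds to a ratio between 0.810 and 1.60.

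**Figure D3:**
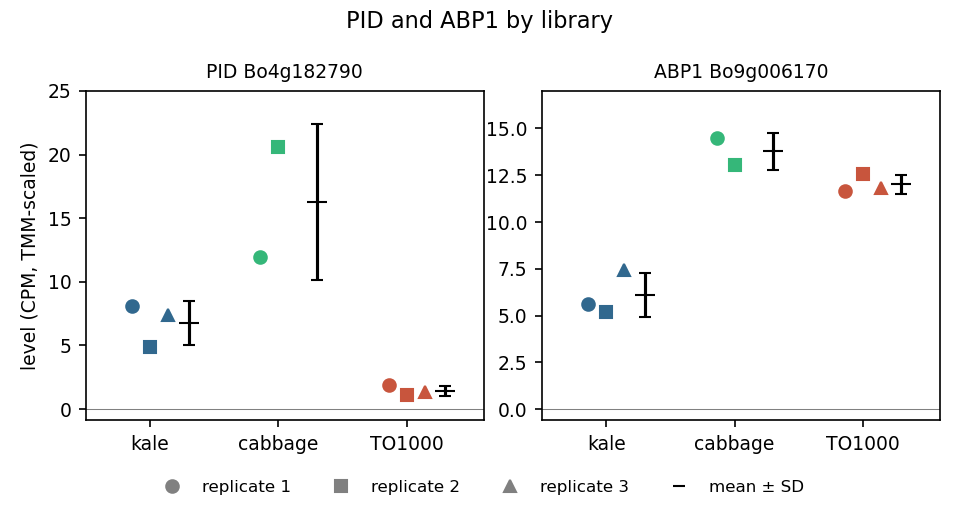
Levels of PID and ABP1 in CPM (vertical axes, of different range) in kale, cabbage and TO1000 (horizontal axes), with 1 symbol per library and the mean ± SD in black. For PID kale lies between cabbage and TO1000, and for ABP1 the 3 kale libraries, at 5.20 to 7.41 CPM, lie below all others.

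Between kale and TO1000, 4 of the 5 genes were called, 3 higher in kale and 1 lower, where 27.7% of all tested genes were called, 14.2% higher and 13.5% lower. Between kale and cabbage all 5 were called, 3 higher and 2 lower, where 25.7% of all tested genes were called, 14.7% higher and 11.1% lower. Cabbage and TO1000 differed in 2 of the 5, PID higher in cabbage and Bo8g115290 lower, where 26.2% of all tested genes were called, 11.5% higher and 14.8% lower. Since the study took these genes from its own calls on the same libraries, nothing is read from the member counts against these shares. The members thus showed 4 patterns. Bo8g102450 and Bo8g052710 were called higher in kale than in both others, as were 6.56% of all tested genes. ABP1 lay lower in kale than in both others, though the call was made only against cabbage, and 4.81% of all tested genes were called lower in both. PID fell into the order cabbage, kale, TO1000, and Bo8g115290 into the order TO1000, kale, cabbage.

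**Figure D4:**
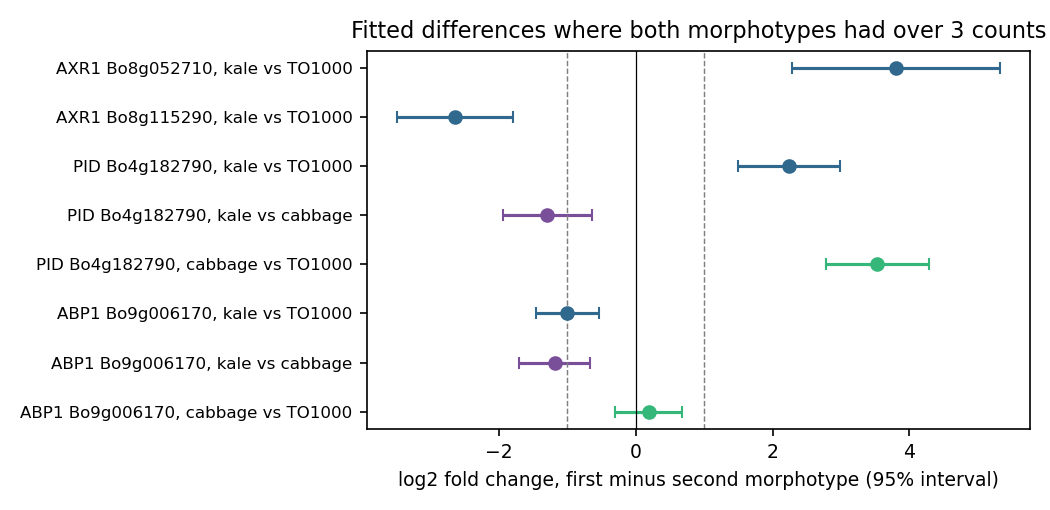
Fitted log2 fold changes with 95% intervals (horizontal axis, first morphotype minus second) for the 8 member comparisons in which both morphotypes had over 3 counts, with dashed lines at a 2-fold change. ABP1 between kale and TO1000 sits on the line at -1, and ABP1 between cabbage and TO1000 is the 1 interval that includes 0.

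The likeness of patterns was described by Pearson's r of log2 CPM over the 8 libraries, which share their morphotypes and are therefore not independent points. Among the members, Bo8g102450 and Bo8g052710 were the most alike, at r = 0.94. Bo8g115290 was not like either, at r = -0.24 with Bo8g102450 and r = -0.0011 with Bo8g052710, and it ran opposite to PID at r = -0.92. ABP1 ran opposite to the 2 copies that were higher in kale, at r = -0.95 with Bo8g102450 and -0.96 with Bo8g052710. Among the other genes that the study names with an identifier in its text, the 2 nearest to Bo8g102450 were AP1 (r = 0.99), a floral meristem gene, and REVOLUTA Bo7g021280 (r = 0.99), a homeodomain leucine zipper gene of meristems and organ polarity. Those nearest to Bo8g052710 were the same REVOLUTA copy (r = 0.96) and the flowering repressor FLC Bo9g173370 (r = 0.96). Bo8g115290 was nearest to the flowering gene SOC1 Bo3g038880 (r = 0.97) and to HAT5 (r = 0.90). PID was nearest to the iron storage genes LSC30 Bo3g001360 (r = 0.94) and FER3 Bo2g156090 (r = 0.93), as the study annotates them. ABP1 was nearest to an L-ascorbate oxidase gene, Bo9g150050 (r = 0.96), and to the growth regulator GRF3 (r = 0.95). Such values are not rare with 3 groups, since 651 of 28125 other tested genes exceeded r = 0.95 with Bo8g102450, 209 with Bo8g052710, 117 with Bo8g115290, 222 with PID and 238 with ABP1.

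The study lists 5 other genes with AXR1 and PID under apical meristem dominance, and these too were chosen on the same libraries. Of the 4 that passed the filter, 3 were called higher in kale and 1 lower, both against TO1000 and against cabbage, and none was called between cabbage and TO1000. Over all tested genes, 14.2% were called higher and 13.5% lower in kale than in TO1000, and 14.7% higher and 11.1% lower than in cabbage, and since the list was chosen on these libraries nothing is read from its counts against these shares. The genes higher in kale were REVOLUTA Bo7g021280, REVOLUTA Bo9g130730 and DWARF27, an enzyme of strigolactone synthesis. The gene lower in kale was MAX1, which acts later in the same synthesis. The median log2 fold change of the 4 was 2.86 for kale against TO1000 and 4.36 for kale against cabbage, where the median of all tested genes was -0.0028 and 0.055. Both REVOLUTA copies passed the filter through kale libraries only, so they had to differ, and this list's counts and median support nothing. They had 0 counts in cabbage, and with these set at 3 counts the median against cabbage was 2.35. Without TO1000 replicate 1 MAX1 was no longer called against TO1000 (log2 fold change -0.95), and without cabbage replicate 2 REVOLUTA Bo9g130730 was no longer called against cabbage. TCP18, the branching inhibitor of this list, had 23 counts in kale and 0 elsewhere and did not pass the filter. The AXR1 copies Bo8g102450 and Bo8g052710 and both REVOLUTA copies had at most 5 counts in cabbage and in TO1000. This limit follows their own values, and all of them passed the filter through kale libraries only, so nothing is read from it.

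The 8 other genes listed under leaf development were also chosen on these libraries. Of these, 4 were called higher in kale than in TO1000 and 3 lower, where 27.7% of all tested genes were called. Against cabbage 5 were called higher in kale and 2 lower, where 25.7% of all tested genes were called. The highest in kale against TO1000 was BLH1 Bo3g029830, a homeodomain gene (log2 fold change 1.56), and the lowest was ASL6, of the LOB domain family (log2 fold change -1.88). HAT5, a homeodomain leucine zipper gene, was the only gene of this list called between cabbage and TO1000, lower in cabbage by a log2 fold change of -3.85 with a standard error of 0.35 (edgeR, Benjamini-Hochberg adjusted p = 4.32e-07). It had the order of Bo8g115290, TO1000 above kale and kale above cabbage, which 0.789% of all tested genes had with calls in all 3 comparisons.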

How the data were processed

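Single-end reads were trimmed by the authors (cutadapt 2.4) and aligned in 2 passes of STAR against the TO1000 genome. The deposited values are counts of reads per gene, without normalization. STAR counts uniquely mapped reads, so reads shared by near-identical copies are not counted. Kale and cabbage reads were mapped to the genome of TO1000, and the effect of sequence differences on the AXR1 counts was not tested. The strand setting is not given in the sources used here. The paper states that cDNA was amplified by PCR without DNase treatment and that another cabbage library gave few reads, which is not analysed here.

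Libraries were grouped by title. Counts were fitted in R 4.3.3 with edgeR 4.0.16 (filterByExpr with minimum count 10 and total 15, TMM factors, quasi-likelihood test, two-sided, all 8 libraries, morphotype as the only term), and Benjamini-Hochberg adjustment was run once over the p values of all 3 comparisons. TMM factors lay between 0.868 and 1.20. The median log2 fold change of all genes was within 0.06 of 0 in every comparison. The steps were tested on simulated data. Every pair of replicates differed by more than sampling noise. Replicates were separate plant pools.

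The genes named are the 5 members, the genes the study lists beside them, and the 2 most alike in pattern among the genes it names. Members and lists were chosen with earlier results of these data known. None of the identifiers is in the RefSeq gene table used here, so no sequence, length or position is given. Alternatives were DESeq2 1.42.0, other factors and filters, glmTreat, FDR within each comparison, a fit of each pair of morphotypes alone, a block for the replicate number, counts thinned to equal depth, and fits without each library in turn.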

Additional observations from a re-analysis of the deposited data

How the results depend on the processing

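The 15 member comparisons were recomputed under up to 18 alternatives, 254 values in all. Of these, 238 kept their side of the threshold, 7 lost the call and 9 gained it. Where the main fit or the alternative made a call, 0 turned round. A change of sign without a call in either fit was counted among the 238. The lowest value of Bo8g102450 between cabbage and TO1000, for example, was 0. ABP1 between kale and TO1000 gained the call with DESeq2 (log2 fold change -1.02), RLE factors (also -1.02), upper-quartile factors (-1.05), thinned counts (-1.14), a filter at a mean of 10 counts (-1.004), all genes kept (-1.03), and without kale replicate 3 (-1.16), TO1000 replicate 1 (-1.02) or TO1000 replicate 3 (-1.02), with -1.16 to -0.92 over the libraries left out. Tested against a 2-fold change by glmTreat, Bo8g115290 (3.48), PID (-1.29) and ABP1 (-1.19) were not called between kale and cabbage. PID between kale and cabbage was -0.76 in thinned counts and -1.60 to -0.81 over the libraries left out. Bo8g115290 between kale and cabbage was 3.00 to 6.12 over the libraries left out. The cause was not tested.

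The number of genes called over all tested genes moved by over 1.5 times with glmTreat, to 4277 between kale and TO1000, 3360 between kale and cabbage and 3519 between cabbage and TO1000, from 7791, 7232 and 7380. Of the 10 nearest genes by pattern, 5 remained with Spearman's correlation and 6 with a prior count of 0.5. Bo8g052710 has fewer alternatives because it missed some count filters.

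Same-numbered replicates of different morphotypes correlated at -0.115 to 0.196 in their deviations, above 0.1 in 1 of 7 pairs, so the numbers were not taken to pair the libraries. With the replicate block, 7710, 6728 and 6805 genes were called in the same order, and no call of a member changed. In cabbage, depth limits what can be said of AXR1 below 0.344 CPM.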

Other observations

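Features numbered next to a member were listed, 3 before and 3 after each, 30 in all. The files give no positions, so adjacency here is that of identifier numbers. Of these, 18 passed the count filter, and 22.2% of the 18 were called between kale and TO1000, 38.9% between kale and cabbage and 33.3% between cabbage and TO1000, where 27.7%, 25.7% and 26.2% of all tested genes were. Bo8g102460, the number after the AXR1 copy Bo8g102450, had 77 counts in kale, 15 in cabbage and 33 in TO1000 and was called higher in kale than in TO1000 (log2 fold change 1.46) and in cabbage (1.33). Bo8g102480, 3 numbers after the same copy, had 166 counts in kale, 276 in cabbage and 28 in TO1000. It was called higher in kale than in TO1000 (2.77) but lower in kale than in cabbage (-1.71), unlike the copy. Bo8g115280, the number before the AXR1 copy Bo8g115290, had 261 counts in kale, 2 in cabbage and 129 in TO1000. It was called lower in cabbage than in TO1000 and higher in kale than in cabbage. It was also called higher in kale than in TO1000 (log2 fold change 1.27), where the AXR1 copy was lower. The feature on the other side of that copy, Bo8g115300, had 8 counts in kale, 1 in cabbage and 42 in TO1000 and was also called lower in cabbage than in TO1000. Cabbage counts of at most 2 were not particular to the neighbours of Bo8g115290. Bo8g102430 and Bo8g102470, numbered near Bo8g102450, had 0 counts in cabbage, as did Bo8g052700, the number before Bo8g052710. None of these passed the count filter. The next features outward from Bo8g115290, Bo8g115270 and Bo8g115310, had 30 and 20 counts in cabbage. How many of all features had at most 2 counts in cabbage was not determined. These features were singled out after their values were seen, and the files and the study give them no name.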
